A study of Mus musculus with 4 samples.

Results

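Fibroblast growth factors (FGFs) are secreted proteins that pass signals between cell layers, and 10 genes of this signalling system were followed through the nose of mouse embryos at embryonic day 14.5: the ligand genes Fgf7, Fgf8, Fgf9, Fgf10 and Fgf18, the receptor genes Fgfr1, Fgfr2 and Fgfr3, and the feedback inhibitor genes Spry1 and Spry2. They were chosen by symbol, and are 10 of the 32285 gene rows of the deposited single-cell count matrices. Whole noses were dissociated to single cells and their transcripts were captured on droplets at the 3′ end, with a molecular identifier for each transcript (UMI). The data were 4 libraries, 2 labelled as controls and 2 as mutants. The mutants carried the Sox10-Cre transgene Tg(Sox10-cre)1Wdr with loxP-flanked Yap (gene Yap1) and Taz (gene Wwtr1), and the series text gives Yap as flox/WT and Taz as flox/flox. For the controls the labels disagree: the strain label is C57Bl/6J, and the series text gives both genes as flox/flox without Cre. The transgene acts in cells that use the Sox10 promoter, such as neural crest and its descendants, so a mutant nose also holds cells that never had Cre. YAP and TAZ are transcriptional co-activators that act with TEAD factors.

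In many developing organs, FGF7 and FGF10 made by mesenchyme bind the epithelial splice form of FGFR2, while FGF8, FGF9 and FGF18 mainly bind the mesenchymal splice forms of FGFR1, FGFR2 and FGFR3. A receptor that has bound its ligand and heparan sulfate activates the RAS and ERK pathway, which turns on ETS factors and Sprouty genes. Sprouty proteins in turn dampen the signal. Counts at the 3′ end do not tell the splice forms of a receptor apart, so the receptor values below are sums over them.

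Of 15863 barcodes, 13739 were kept as cells, with 500 or more genes detected and no more than 10% of UMIs from mitochondria. The libraries held 4075 and 2474 such cells in control 1 and control 2, and 2995 and 4195 in mutant 1 and mutant 2, with 35331450, 19767873, 29121739 and 26874057 UMIs. Libraries shared 22 barcodes, and mutant 2 was the shallowest with a median of 5282 UMIs a cell, against 6878.5 to 8549 in the others. Cells were placed in classes by how many genes of a marker list they expressed: 9594 were mesenchyme, 729 osteoblast, 428 chondrocyte, 1069 epithelium, 121 olfactory neuronal lineage, 109 glia, 174 endothelial, 160 mural (the contractile cells around vessels) and 253 macrophage, and each mesenchymal cell expressed a median of 8 of that list's 14 markers. Another 261 cells passed the gates of several classes and 739 passed none, and both were left out of the classes. The epithelium contained 696 keratinocyte, 118 respiratory and 153 olfactory (not neuronal) cells. Control 2 had 4 respiratory, 7 olfactory epithelial and 12 neuronal cells, so those 3 classes are given without it.

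Levels are CPM, the UMIs of a gene scaled to the same total for the summed cells of each class in each library. They are compared between classes for 1 gene and not between genes. A level in a class mixes how many of its cells express a gene and how much each holds. The ± after a level is the SD over 4 libraries (n = 4), or over 3 libraries (n = 3) for respiratory and olfactory epithelium and for neuronal cells. The ± after a log2 difference is its standard error. Differences were tested on the summed UMIs with edgeR's quasi-likelihood test, adjusted over all genes tested (Benjamini-Hochberg), and "called" means an adjusted p under 0.05.

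Fgf10, a ligand that many budding organs need, was a transcript of the mesenchyme, which held 89.7% of its UMIs. Control 1 had a mesenchymal level of 36.5 CPM and control 2 of 34.2, while mutant 1 had 49.96 and mutant 2 had 42.6 (40.8 ± 7.05). All 4 libraries lay above every library's level in chondrocytes (15.02 ± 4.85 CPM) and osteoblasts (14.3 ± 3.17 CPM). The epithelium had 9 UMIs of Fgf10 in 1069 cells, 0.57 CPM, and the 253 macrophages had 0. The mouse gene spans chr13:118669791-118792115 (GRCm38).

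Fgf7, also called keratinocyte growth factor, followed the same divide but reached further into the other connective tissue classes. Its mesenchymal level was 16.1 and 13.4 CPM in the control libraries, and 13.4 and 15.4 in the mutant ones (14.6 ± 1.35). Osteoblasts had 12.4 CPM and mural cells 11.99, and the ranges of these 3 classes overlapped. Chondrocyte levels spread from 3.19 to 17.1 CPM. None of the 1069 epithelial cells held a UMI of Fgf7, which puts the epithelium at least 67.5-fold lower than mesenchyme when 3 counts over the pooled class are taken as the limit of a count of 0. The same limit gives at least 13.1-fold for endothelial cells and at least 12.2-fold for macrophages. Fgf7 lies at chr2:126034658-126091185.

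Fgf18, a ligand known for its part in bone and cartilage growth, had 82.0% of its UMIs in mesenchyme. Its levels there were 13.2, 11.01, 12.6 and 14.6 CPM in control 1, control 2, mutant 1 and mutant 2 (12.8 ± 1.50). The olfactory neuronal lineage had a like mean with a wider spread, 16.0, 16.1 and 6.01 CPM in control 1, mutant 1 and mutant 2. Chondrocytes had 10.5 ± 3.98 CPM, while osteoblasts had 2.81 ± 2.06 and epithelium 2.37 ± 1.16. Fgf18 lies on the minus strand at chr11:33117430-33147400.

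Fgf9 was highest in the epithelial and neuronal classes. Keratinocytes had 24.4, 22.0, 25.7 and 35.4 CPM in control 1, control 2, mutant 1 and mutant 2 (26.9 ± 5.89). Respiratory epithelium had 22.0 CPM, olfactory epithelium 19.3 and the neuronal lineage 26.4, and the ranges of these 4 classes overlapped. Mesenchymal Fgf9 was lower in every library, at 4.54, 3.09, 1.75 and 3.07 CPM. Since mesenchyme made up most cells, it still held 28.9% of the Fgf9 UMIs, against 45.8% in epithelium. Skeletal muscle, with 75 cells in all libraries together, had a pooled Fgf9 level of 20.2 CPM. Endothelial cells had 0, at least 2.81-fold below mesenchyme. Fgf9 lies at chr14:58070547-58112720.

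Fgf8, which patterns the early face, was rare at this stage, with 122 UMIs in all 13739 cells. Keratinocytes had 3.05 ± 1.31 CPM from 31 UMIs, with 4.82, 1.76, 3.11 and 2.49 in control 1, control 2, mutant 1 and mutant 2. Mesenchyme had 0.49 CPM. Fgf8 did not pass the filter on low counts in any class and lies on the minus strand at chr19:45736798-45742915.

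**Figure D1:**
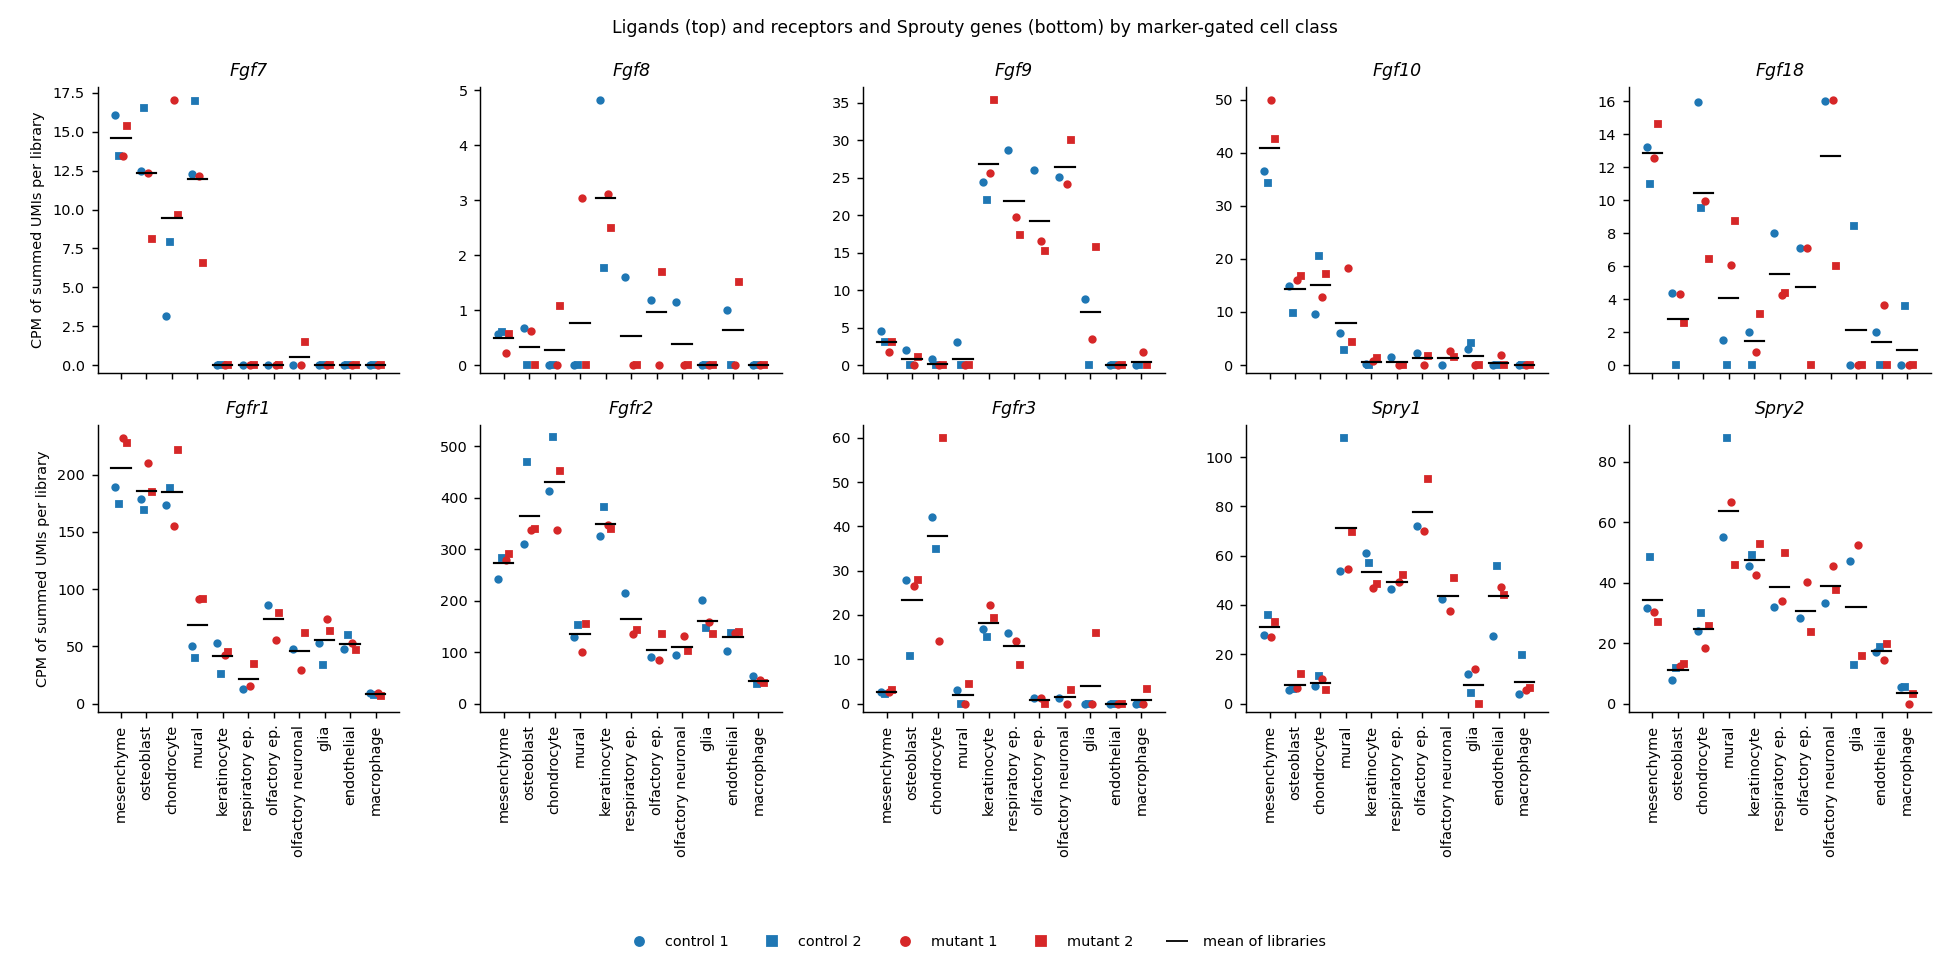
Level of each of the 10 genes in CPM (y axis) in each cell class (x axis). Points are libraries (blue control, red mutant, circle replicate 1, square replicate 2), and the black bar is their mean; control 2 is left out for respiratory epithelium, olfactory epithelium and olfactory neuronal cells. Fgf10 reaches 34.2 to 49.96 CPM in mesenchyme, whereas Fgf9 reaches 22.0 to 35.4 CPM in keratinocytes.

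Fgfr1 was highest in mesenchyme, osteoblasts and chondrocytes. Its mesenchymal levels were 189.7 and 174.1 CPM in the controls and 232.2 and 227.4 in the mutants (206 ± 28.4). Osteoblasts had 186 ± 17.5 CPM and chondrocytes 185 ± 28.1, and these 3 classes overlapped. A gap followed: the next class, olfactory epithelium, had 73.8 ± 16.1 CPM. Endothelial cells had 51.8 ± 6.10 CPM, keratinocytes 41.8 ± 11.7 and respiratory epithelium 21.0 ± 11.96. Macrophages, at 7.94 ± 1.40 CPM, were lowest. Fgfr1 lies at chr8:25513654-25575718.

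Fgfr2 was present on both sides of the epithelial and mesenchymal divide. The highest levels were in chondrocytes, with 413, 517, 337 and 452 CPM in control 1, control 2, mutant 1 and mutant 2 (430 ± 75.3). Osteoblasts followed with 364 ± 71.8 CPM and keratinocytes with 349 ± 23.8, and neither was separated from the class above it. Mesenchyme had 242, 282, 279 and 289 CPM (273 ± 21.1), in every library below every keratinocyte level. Respiratory epithelium had 164 ± 43.6 CPM and olfactory epithelium 104 ± 27.4. After each cell was thinned to 3000 UMIs, 49.4% of mesenchymal cells had a UMI of Fgfr2, against 7.53% of macrophages. Before thinning the libraries' shares ran from 64.7% to 77.2% and from 22.5% to 40.0%, with class median depths of 6336 and 8892 UMIs. The annotated interval of Fgfr2 is chr7:130162451-133123350 on the minus strand.

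Fgfr3, which restrains cartilage growth, was highest in the skeletal classes. Chondrocytes had 42.2, 34.9, 14.2 and 59.9 CPM in control 1, control 2, mutant 1 and mutant 2 (37.8 ± 18.9). Osteoblasts had 23.3 ± 8.40 CPM, keratinocytes 18.3 ± 3.14 and respiratory epithelium 12.9 ± 3.79, each overlapping its neighbour in that order. The mesenchyme was far below, at 2.50, 2.19, 2.68 and 3.01 CPM (2.59 ± 0.34). Endothelial cells had 0 UMIs, at least 2.34-fold below mesenchyme. Fgfr3 lies at chr5:33721674-33737068.

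The balance of Fgfr1 to Fgfr2 UMIs within a class differed by tissue. Its absolute size depends on how each gene is captured, so it is read between classes only. Mesenchyme had 0.754 ± 0.0941 Fgfr1 UMIs per Fgfr2 UMI (0.617 to 0.831 over libraries). Keratinocytes had 0.122 ± 0.0404 (0.0668 to 0.163) and respiratory epithelium 0.139 (0.0597 to 0.242), so neither reached the lowest mesenchymal library. Olfactory epithelium stood with mesenchyme, at 0.729 ± 0.192 (0.588 to 0.948). Osteoblasts had 0.527 and chondrocytes 0.434.

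**Figure D2:**
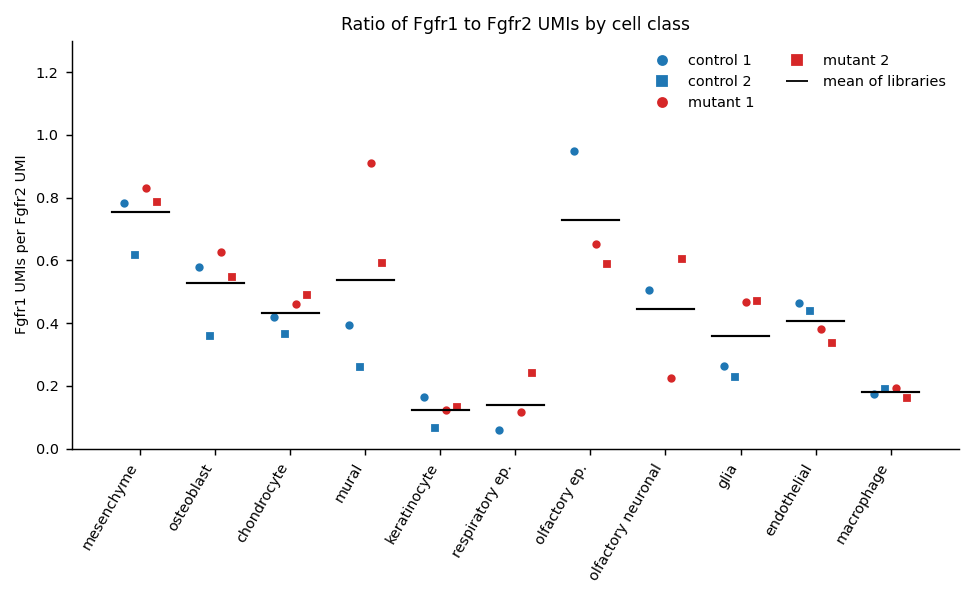
Fgfr1 UMIs per Fgfr2 UMI (y axis) in each cell class (x axis), with points as libraries (blue control, red mutant, circle replicate 1, square replicate 2) and the black bar as their mean; control 2 is left out for respiratory epithelium, olfactory epithelium and olfactory neuronal cells. Keratinocytes lie between 0.0668 and 0.163, mesenchyme between 0.617 and 0.831, and olfactory epithelium between 0.588 and 0.948.

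Spry1 and Spry2 encode inhibitors that FGF signalling and other receptor tyrosine kinases induce. Their promoters, each a window of 300 bases from 250 before to 50 after the RefSeq start site (GRCm38.p6), are shown because among the members' windows only these hold either of 2 motifs searched on both strands: CATTCC, the core letters read by TEAD factors, and CCGGAA, the core letters of ETS factors. The Spry1 window is chr3:37639697-37639996 on the plus strand, with the CATTCC match, on the opposite strand at position -208 from the start site, in capitals. The Spry2 window is chr14:105896770-105897069 on the minus strand, with the CCGGAA match at position 34 in capitals.
Spry1: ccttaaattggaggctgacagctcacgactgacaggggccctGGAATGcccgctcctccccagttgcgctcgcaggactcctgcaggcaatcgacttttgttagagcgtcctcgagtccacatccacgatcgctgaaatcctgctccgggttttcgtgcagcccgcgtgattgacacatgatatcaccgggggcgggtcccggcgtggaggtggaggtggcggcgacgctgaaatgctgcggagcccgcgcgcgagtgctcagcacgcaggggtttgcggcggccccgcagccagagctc
Spry2: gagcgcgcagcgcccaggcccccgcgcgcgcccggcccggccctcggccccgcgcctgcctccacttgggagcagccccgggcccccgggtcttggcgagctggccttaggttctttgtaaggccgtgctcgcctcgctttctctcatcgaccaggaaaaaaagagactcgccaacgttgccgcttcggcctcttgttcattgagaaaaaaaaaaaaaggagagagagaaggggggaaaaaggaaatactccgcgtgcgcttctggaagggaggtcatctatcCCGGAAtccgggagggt
Windows were found for 8 of the 10 genes, 9 windows in all. CATTCC occurred in 14.7% and CCGGAA in 14.9% of all 32851 promoter windows of that length, so a match is common and is given as a description of the letters only.

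Spry1 was highest in olfactory epithelium, with 72.1, 69.9 and 91.3 CPM in control 1, mutant 1 and mutant 2, and in mural cells, with 53.7, 108, 54.6 and 69.8 CPM over the 4 libraries. Keratinocytes had 53.4 ± 6.74 CPM and respiratory epithelium 49.3 ± 2.90. Mesenchyme had 27.7, 35.96, 27.2 and 33.0 CPM (31.0 ± 4.25), above every level in macrophages (8.83), chondrocytes (8.39) and osteoblasts (7.39 ± 3.19). The gene spans chr3:37639947-37644598.

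Spry2 had a flatter profile. Mural cells had 55.2, 87.8, 66.7 and 45.8 CPM (63.9 ± 18.1) and keratinocytes 45.7, 49.3, 42.4 and 52.8 CPM (47.5 ± 4.49). Mesenchyme had 31.6, 48.6, 30.3 and 26.8 CPM (34.4 ± 9.72), with control 2 apart from the other libraries. The lower end was held by endothelial cells (17.5 ± 2.24), osteoblasts (11.2 ± 2.40) and macrophages (3.47), each separated from the next. Spry2 spans chr14:105891947-105896819 on the minus strand.

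The contrast of epithelium with mesenchyme called 8 of the 9 members tested, 4 higher and 4 lower in epithelium. Over the 11536 genes tested 59.8% were called, 30.2% higher and 29.6% lower, so most genes differed between these tissues. Fgf9 was higher by 3.00 ± 0.25 on the log2 scale (adjusted p = 8.05e-11) and Fgfr3 by 2.44 ± 0.27 (adjusted p = 1.44e-08). Fgf10 fell by 5.89 ± 0.28 (adjusted p = 6.32e-16), Fgf18 by 2.30 ± 0.32 and Fgfr1 by 2.15 ± 0.13, and Fgf7, at 0 UMIs in epithelium, passed the filter only through other classes, so that its call adds nothing to the bound given above. Members low in 1 of the 2 tissues, such as Fgf10 and Fgf18 in epithelium, entered the fit through classes where they were higher. The count of members is therefore not read against the share of all genes. Both inhibitors were higher in epithelium, Spry1 by 0.95 ± 0.13 and Spry2 by 0.38 ± 0.12. The difference of Fgfr2 was 0.07 ± 0.10 (adjusted p = 0.56), the member not called. The members' median was 0.07, against 0.02 over all genes. The Spry2 call (adjusted p = 0.0072) was lost with DESeq2 (0.068), without the library block (0.093), without control 1 (0.066) and without mutant 2 (0.143).

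The wider list of 63 FGF pathway genes had 42 members tested between epithelium and mesenchyme, of which 13 were called higher and 22 lower in epithelium. Fgfbp1, a carrier that releases FGFs from the matrix, was higher by 5.74 ± 0.34 on the log2 scale, with mean levels of 68.0 CPM in epithelium and 1.41 in mesenchyme. Fgf2 fell by 5.18 ± 0.38 (0.54 against 21.2 CPM), and Fgf14, an intracellular FGF homologue that binds sodium channels, fell by 4.54 ± 0.33 (2.40 against 42.8 CPM). Esrp2, a splicing factor that favours the epithelial form of FGFR2, had 398 UMIs in epithelium and 3 in mesenchyme. Esrp1, its relative, was among the 5 largest but served as a gate marker for epithelium. The 3 ETS targets were split: Etv4 was higher by 1.03 ± 0.28 and Etv5 by 0.65 ± 0.15, and Etv1 fell by 1.25 ± 0.17. Of 16 genes for FGF binding or heparan sulfate, 5 were higher and 10 lower.

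Osteoblasts differed from mesenchyme in 7 of 9 members, 2 higher and 5 lower, where 29.2% of all genes were called (15% higher, 14.2% lower). Fgfr3 was higher by 3.27 ± 0.27 (adjusted p = 6.4e-10) and Fgfr2 by 0.49 ± 0.10 (adjusted p = 0.00052). Both Sprouty genes fell, Spry1 by 1.92 ± 0.20 and Spry2 by 1.50 ± 0.17. Of the ligands, Fgf18 fell by 1.96 ± 0.36, Fgf10 by 1.36 ± 0.18 and Fgf9 by 1.53 ± 0.52, while Fgf7 (-0.19 ± 0.26) and the receptor gene Fgfr1 (-0.05 ± 0.12) were not called. The members' median was -1.36. The Fgf9 call, which rests on 8 UMIs in osteoblasts, was lost when any 1 library was left out and with stricter gates. Fgf9, and Fgf18 at 2.81 CPM in osteoblasts, passed the filter only through other classes, so their calls add nothing to the count of members. Of 42 pathway genes, 9 were higher and 11 lower. Il17rd, Dusp6 and 3 other feedback inhibitors were among those that fell, by 1.41 ± 0.19 for Il17rd and 1.14 ± 0.21 for Dusp6, and no feedback inhibitor of the 8 tested was called higher. Sulf1, which trims heparan sulfate, fell by 1.38 ± 0.15. The cell-surface proteoglycans Gpc1 and Sdc3 were higher by 1.98 ± 0.14 and 1.05 ± 0.16.

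Chondrocytes had 5 of 9 members called, 2 higher and 3 lower, against 17.6% of all genes (9.28% higher, 8.35% lower). Fgf9, with 1 UMI in chondrocytes, passed the filter only through other classes, so its call adds nothing to this count. The same 2 receptors were higher as in osteoblasts, Fgfr3 by 3.87 ± 0.29 (adjusted p = 1.48e-10) and Fgfr2 by 0.66 ± 0.11. Both contrasts used the same mesenchyme sums. Spry1 fell by 1.91 ± 0.26 and Fgf10 by 1.48 ± 0.22, whereas Spry2 (-0.43 ± 0.18, adjusted p = 0.098), Fgfr1 (-0.14 ± 0.13), Fgf7 (-0.73 ± 0.34) and Fgf18 (-0.27 ± 0.34) were not called. Fgf9, the remaining call, rests on 1 UMI in chondrocytes, a ratio to mesenchyme of 0.0905 (95% interval 0.00228 to 0.510), and was lost without control 1, without control 2, without mutant 2 and with stricter gates. Such intervals and the limits for a count of 0 cover counting error only. Of 42 pathway genes, 9 were higher and 6 lower. Fgfrl1, a receptor-like protein without a kinase domain, was higher by 2.12 ± 0.18, with 51.0, 53.9, 54.0 and 59.9 CPM against 12.7, 11.2, 12.6 and 14.0 in mesenchyme. The groups of libraries did not overlap. Sdc4 and Etv5 were higher by 1.43 ± 0.16 and 1.17 ± 0.19, and Fgf14 and Sulf1 fell by 1.34 ± 0.29 and 1.34 ± 0.17.

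Endothelial cells were low in both ligands and receptors. The test called 51.4% of all genes between them and mesenchyme (25% higher, 26.4% lower), and all 9 members tested, 1 higher and 8 lower. Of these, Fgf7, Fgf9 and Fgfr3 had 0 UMIs in endothelial cells and Fgf10 had 1, so they passed the filter only through the classes where they were higher; the count is no support for a difference of the members as a group. Fgfr1 fell by 1.90 ± 0.16, Fgfr2 by 0.99 ± 0.12 and Spry2 by 0.81 ± 0.21. Fgf18 fell by 3.03 ± 0.62, but at 1.41 CPM in endothelial cells it likewise passed the filter only through classes where it was higher. The ratio of Fgf10 to mesenchyme was 0.00904 (0.000229 to 0.0504). Spry1 was higher by 0.55 ± 0.18 (adjusted p = 0.014), a call that was lost without mutant 1, without mutant 2 and without the filter on low counts. Of 42 pathway genes, 9 were higher and 16 lower, and the 5 with the largest called change (Gpc3, Fgf14, Sulf1, Sdc2 and Fgf2) were all lower.

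Mural cells combined low receptor levels with high inhibitor levels. Of 9 members 6 were called, 2 higher and 4 lower, against 26% of all genes (13.8% higher, 12.1% lower). Spry1 was higher by 1.23 ± 0.18 (adjusted p = 6.59e-06) and Spry2 by 0.94 ± 0.17 (adjusted p = 0.00013). Fgfr1 fell by 1.57 ± 0.17, Fgfr2 by 0.96 ± 0.13, Fgf10 by 2.40 ± 0.33 and Fgf18 by 1.69 ± 0.57, the last lost without control 2 and without mutant 1. In mural cells Fgf10 was at 7.88 CPM and Fgf18 at 4.08, and both passed the filter through classes where they were higher. The count of members is therefore not read against the share of all genes. Fgf7 (-0.25 ± 0.39), Fgf9 (-1.46 ± 0.93) and Fgfr3 (-0.20 ± 0.88) were not called. Spry4, another Sprouty gene, had the largest called change among the 42 pathway genes tested, 2.81 ± 0.29, with 41.4, 53.8, 48.5 and 54.5 CPM against 7.62, 7.54, 6.18 and 7.59 in mesenchyme. Every mural library thus lay above every mesenchymal one. Gab1, an adaptor, was higher by 1.54 ± 0.16, and Flrt3 fell by 1.83 ± 0.21, Fgf12 by 2.24 ± 0.39 and Fgf14 by 2.19 ± 0.44.

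Glia were tested with only 19 cells in mutant 2, where 26.7% of all genes were called (13.7% lower). Of 8 members 5 were called lower, but Fgf7 with 0 UMIs and Fgf10 with 2 passed the filter only through other classes, so the count is not read against that share. Fgfr1 fell by 1.86 ± 0.21, Spry1 by 1.71 ± 0.43 and Fgfr2 by 0.70 ± 0.15. Fgf9 (0.97 ± 0.73), Fgfr3 (-0.30 ± 1.23) and Spry2 (0.12 ± 0.30) were not called. Of 41 pathway genes, 6 were higher and 17 lower, and the 5 with the largest called change (Sulf1, Fgf2, Gpc3, Dusp5 and Fgf14) were all lower, with 2 UMIs each of Sulf1, Fgf2 and Dusp5 in glia.

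**Figure D3:**
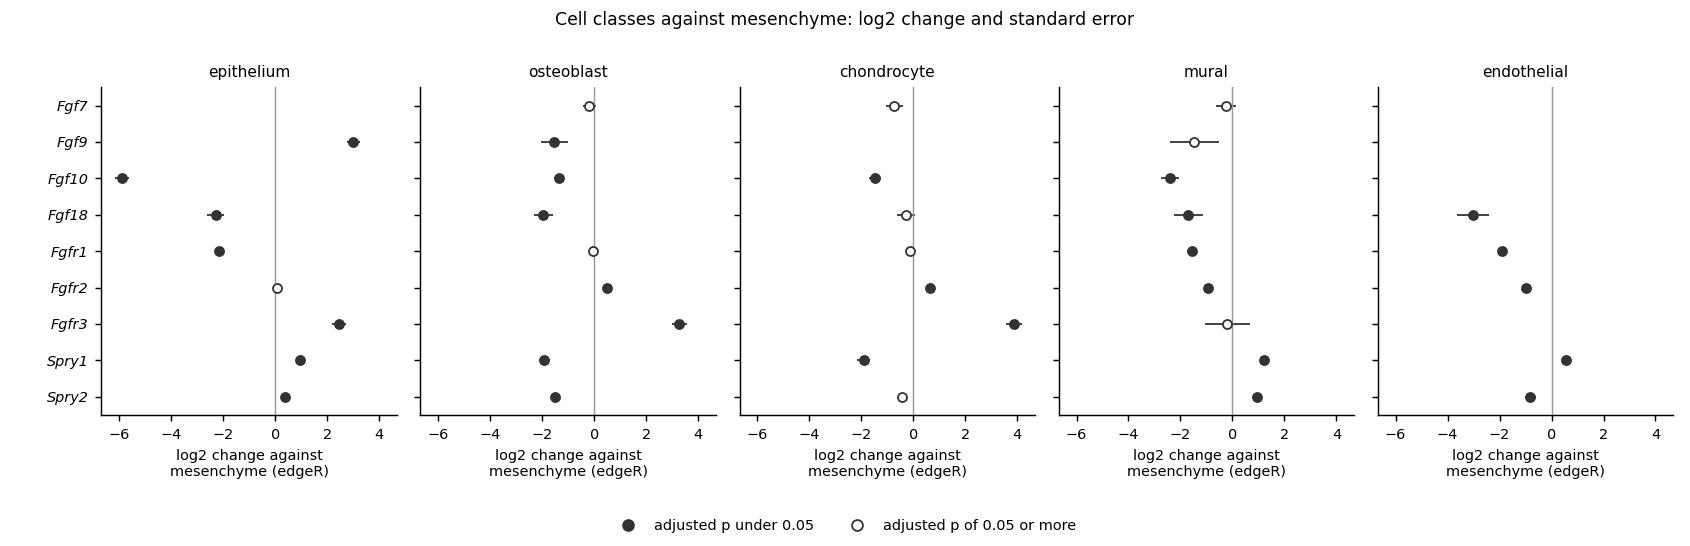
Log2 difference from mesenchyme (x axis) of each gene (y axis) in 5 cell classes; filled points have an adjusted p under 0.05 and bars are standard errors. Fgf8, genes with 0 UMIs in the class and those with 1 UMI are left out; Fgfr3 is higher in epithelium (2.44), osteoblasts (3.27) and chondrocytes (3.87), and Spry1 is higher in mural cells (1.23) and lower in osteoblasts (-1.92).

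Within the epithelium, Fgfr1 and Fgfr2 differed between sub-classes in a comparison over the 3 libraries with enough cells, and Fgf9 was not called. Keratinocytes against respiratory epithelium gave 2 called members of 6, both higher, where 25.6% of all genes were called (13% higher). Fgfr1 was higher by 1.34 ± 0.28 (adjusted p = 0.0018, and 0.09 without control 1) and Fgfr2 by 1.13 ± 0.19 (adjusted p = 0.00030). Fgf9 (0.40 ± 0.28, adjusted p = 0.33), Fgfr3 (0.63 ± 0.37), Spry1 (0.18 ± 0.19) and Spry2 (0.40 ± 0.23) were not called. Of 45 pathway genes, 15 were higher in keratinocytes and 3 lower. Among these, Etv4 was higher by 2.34 ± 0.62, Fgfbp1 by 2.25 ± 0.32 and Spred2 by 1.91 ± 0.23, and the ligand gene Fgf1 fell by 2.40 ± 0.43 and Il17rd by 1.88 ± 0.21.

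Olfactory epithelium against respiratory epithelium called 4 of 6 members, 2 higher and 2 lower, against 14% of all genes (6.95% higher, 7.1% lower). Fgfr1 was higher by 1.88 ± 0.29 (adjusted p = 0.00027) and Spry1 by 0.64 ± 0.20 (adjusted p = 0.042), and Fgfr2 fell by 0.68 ± 0.21 (adjusted p = 0.044). Fgfr3 had 2 UMIs in olfactory and 24 in respiratory epithelium, a ratio of 0.0655 (0.00751 to 0.264). It passed the filter only through other classes, so its call adds nothing to the count of members. The Spry1 call was lost when any 1 of the 3 libraries was left out, with DESeq2 and without the filter on low counts. The Fgfr2 call was lost with DESeq2 and without control 1, and that of Fgfr3 without control 1. Fgf9 (-0.18 ± 0.34) and Spry2 (-0.26 ± 0.27) were not called. Of 45 pathway genes, 9 were higher and 3 lower, with Fgf12 higher by 3.08 ± 0.43, Fgf13 by 2.73 ± 0.63 and Gpc1 by 2.19 ± 0.37. Of the other ligands, Fgf20 was higher in olfactory epithelium by 2.63 ± 0.59, with 31.9, 21.3 and 38.9 CPM against 3.19, 5.65 and 6.51. Fgf1 went the other way, falling by 2.92 ± 0.56, with 2.36, 2.37 and 8.46 CPM in olfactory against 24.0, 33.9 and 34.7 in respiratory epithelium. For both genes the libraries of the 2 classes did not overlap.

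The olfactory neuronal lineage differed from the olfactory epithelium in 1 of 6 members, Spry1, which fell by 0.90 ± 0.20 (adjusted p = 0.0060), where 16.4% of all genes were called (5.96% lower). Without control 1 the adjusted p was 0.068. Fgf9 (0.33 ± 0.32), Fgfr1 (-0.73 ± 0.25, adjusted p = 0.052), Fgfr2 (-0.02 ± 0.22), Fgfr3 (2 UMIs in olfactory epithelium) and Spry2 (0.18 ± 0.27) were not called. Of 45 pathway genes, 5 were higher and 4 lower. Fgf14 had 95 UMIs in the neuronal lineage and 0 in olfactory epithelium, and Sdc3 was higher by 1.72 ± 0.47, Dusp4 by 1.67 ± 0.47 and Fgf12 by 1.53 ± 0.24, while Dusp5 fell by 1.51 ± 0.27.

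Mesenchyme was then split by genes that mark its regions: cells with at least 2 UMIs of the named genes were compared with cells holding 0, inside the same libraries. The positive cells were deeper (for Foxl2 and Agtr2, medians of 6715.5, 7448, 9587 and 5733 UMIs in control 1, control 2, mutant 1 and mutant 2, against 6356.5, 6397, 7973 and 4852), and the part of depth in these results was not tested.

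The 924 cells with Foxl2 or Agtr2 differed from 7635 negative cells in all 9 members tested, 6 higher and 3 lower, where 15.3% of all genes were called (8.84% higher, 6.51% lower). Fgfr3, with 5 UMIs in the positive cells, passed the filter only through the negative cells, so its call adds nothing to this count. All 4 ligands tested were higher. Fgf10 had 45.7, 79.7, 70.3 and 78.4 CPM in the positive cells of control 1, control 2, mutant 1 and mutant 2, against 34.1, 27.7, 45.9 and 38.4 in the negative cells, a difference of 0.90 ± 0.15 (adjusted p = 0.0012). Each library showed the difference, although control 1 was lower than the highest negative library. Fgf7 had 22.7, 33.9, 22.6 and 21.6 CPM against 14.4, 9.4, 12.2 and 14.3, with no overlap (1.00 ± 0.20). Fgf18 had 17.9, 21.3, 19.1 and 18.3 CPM against 12.7, 9.4, 10.4 and 13.7 (0.74 ± 0.17, adjusted p = 0.0099, and 0.054 without control 2). Fgf9 was higher by 1.38 ± 0.29. Spry1 rose from 24.2, 32.9, 22.6 and 30.2 CPM to 46.1, 47.7, 57.2 and 47.7 (0.89 ± 0.12), and Spry2 was higher by 0.61 ± 0.09, a call lost without the library block (adjusted p = 0.116).

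All 3 receptors were lower in these cells. Fgfr2 had 146, 196, 118 and 192 CPM in the positive cells against 268, 302, 307 and 312, a fall of 0.86 ± 0.10 (adjusted p = 8.87e-05) with no overlap. Fgfr1 had 149, 159, 167 and 185 CPM against 199, 180, 241 and 238, falling by 0.36 ± 0.07. Fgfr3 fell by 2.12 ± 0.49 on 5 UMIs, a call lost without control 1 (adjusted p = 0.074). The members' median was 0.74. Leaving out 1 library at a time left 8 or 9 members called. Of 46 pathway genes, 8 were higher and 4 lower, among them Fgf14 (0.94 ± 0.12), Sulf1 (0.78 ± 0.06), Gpc3 (0.73 ± 0.04), Gpc1 (-0.80 ± 0.20) and Etv4 (-1.03 ± 0.31).

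Fgfr2 was also called in the splits by Pax9 or Osr2, by Osr1 and by Shox2. In the 2477 cells with Pax9 or Osr2 it fell by 0.65 ± 0.04 (adjusted p = 2.42e-06), from 280, 333, 324 and 328 CPM to 192, 209, 204 and 217. Of 9 members 6 were called there, 4 higher and 2 lower, against 10.8% of all genes (5.67% higher, 5.08% lower). Spry2 was higher by 0.55 ± 0.09, Fgf10 by 0.50 ± 0.14, Fgf18 by 0.49 ± 0.14 and Spry1 by 0.47 ± 0.10, and Fgfr3 fell by 0.96 ± 0.27. Fgf7 (0.14 ± 0.15), Fgf9 (0.33 ± 0.27) and Fgfr1 (-0.14 ± 0.06) were not called. With any 1 library left out 3 members were called, and without the library block 1, which was Fgfr2. The Fgfr3 call was lost in all of these fits. That of Fgf18 was lost when control 2, mutant 1 or mutant 2 was left out. That of Fgf10 was lost when control 1, control 2 or mutant 2 was left out, and that of Spry1 when control 1 or mutant 1 was. The 5 largest called pathway changes were in Gpc1 (-0.92 ± 0.14), Flrt2 (0.76 ± 0.10), Etv4 (0.65 ± 0.19), Fgf12 (-0.54 ± 0.14) and Il17rd (0.47 ± 0.08).

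In Osr1 cells 5 of 9 members were called, 2 higher and 3 lower, against 9.97% of all genes (4.99% in each direction). Fgfr2 fell by 0.52 ± 0.05 (adjusted p = 1.42e-05), Fgfr1 by 0.40 ± 0.05 and Fgfr3 by 1.10 ± 0.33, and Fgf18 was higher by 0.68 ± 0.20 and Fgf10 by 0.36 ± 0.10. Fgf7 (0.37 ± 0.16), Fgf9 (0.48 ± 0.35), Spry1 (0.20 ± 0.09) and Spry2 (-0.09 ± 0.08) were not called. Leaving out a library left 2 or 3 calls, and fitting without the library block left 1, which was Fgfr2. The Fgfr3 call was lost with any 1 library left out. That of Fgf18 was lost when control 1, control 2 or mutant 1 was left out, and that of Fgf10 when control 2, mutant 1 or mutant 2 was. Among the pathway genes Fgf16 (1.50 ± 0.34) and Sulf1 (0.74 ± 0.06) were higher, and Etv4 (-1.17 ± 0.27), Etv1 (-0.92 ± 0.12) and Gpc1 (-0.89 ± 0.15) were lower. Shox2 cells had 1 call of 9 against 7.09% of all genes, Fgfr2, which fell by 0.31 ± 0.05, and 0 calls without the library block. The largest difference of a member that was not called there was that of Fgf9 (-0.67 ± 0.35). The called pathway changes there were led by Gpc3 (0.81 ± 0.05), Fgf14 (-0.71 ± 0.15), Fgf12 (-0.69 ± 0.11), Dusp6 (0.59 ± 0.16) and Fgf13 (0.52 ± 0.11).

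The 240 cells with Pou3f4 had higher Fgfr2, and 4 of 9 members were called, 1 higher and 3 lower, against 22.9% of all genes (10% higher, 12.8% lower). Fgfr2 was higher by 0.45 ± 0.09 (adjusted p = 1.17e-05), with 330, 486, 339 and 340 CPM against 238, 277, 270 and 287, with no overlap. Fgf18 fell by 2.99 ± 0.56 on 4 UMIs, with 5.1, 0, 0.9 and 0 CPM against 13.7, 11.3, 14.1 and 15.4. It passed the filter only through the negative cells, so its call adds nothing to the count of members. Spry1 fell by 1.01 ± 0.25 and Spry2 by 0.59 ± 0.22. The Spry1 call was lost without mutant 1 (adjusted p = 0.086). The Spry2 call was lost without the library block (adjusted p = 0.138), without control 2 (0.135), without mutant 1 (-0.35, adjusted p = 0.52) and with positive cells at 1 UMI or more (-0.15, adjusted p = 0.50). Leaving out 1 library gave 3 to 5 called members. Fgf10 (0.40 ± 0.17), Fgf7 (-0.13 ± 0.31), Fgfr1 (0.09 ± 0.10), Fgfr3 (-0.70 ± 0.80) and Fgf9, at 1 UMI, were not called. Of 46 pathway genes tested in these cells, 1 was called higher and 15 lower, with falls of 1.98 ± 0.30 for Fgf12, 1.83 ± 0.17 for Sulf2, 1.44 ± 0.24 for Sdc4, 1.41 ± 0.09 for Gpc3 and 1.23 ± 0.18 for Flrt2.

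In the 769 cells with Itgbl1, Crym or Cldn11, 4 of 9 members were called, 1 higher and 3 lower, against 15.5% of all genes (8.33% higher, 7.19% lower). Fgf10 had 17.5, 13.2, 32.5 and 18.1 CPM against 39.4, 38.4, 52.4 and 45.4 in negative cells, a fall of 1.15 ± 0.14 (adjusted p = 0.00037) with no overlap. Fgfr2 fell by 0.65 ± 0.08 and Fgfr1 by 0.51 ± 0.07, and Spry1 was higher by 0.40 ± 0.10 (adjusted p = 0.019). The Spry1 call was lost without control 1, without control 2, without mutant 2, without the library block and with positive cells at 1 UMI or more (adjusted p = 0.071 to 0.111). Fgf18 (-0.57 ± 0.20, adjusted p = 0.087), Fgf9 (-1.10 ± 0.57), Fgf7 (-0.02 ± 0.28), Fgfr3 (0.45 ± 0.44) and Spry2 (0.10 ± 0.12) were not called. Of 45 pathway genes, 11 were higher and 9 lower. All 3 ETS targets were higher, Etv4 by 1.73 ± 0.27, Etv1 by 1.00 ± 0.18 and Etv5 by 0.68 ± 0.15. Of the feedback inhibitors tested, 5 of 10 were higher and 1 was lower, with Spry4 at 1.64 ± 0.19 and Dusp6 at 1.24 ± 0.13, and Fgf14 was higher by 1.55 ± 0.20.

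Cells with Foxc1, Foxd1, Tbx18 or Zic1 had no member called of 9, against 11.7% of all genes. In edgeR's test 0 members had an unadjusted p under 0.05. Without mutant 1 there was 1 call. Of the members, Fgf9 had the largest difference, -0.55 ± 0.28. Pathway genes with the largest called changes were Fgf12 (-1.24 ± 0.20), Fgf14 (0.66 ± 0.11), Fgf2 (-0.63 ± 0.10), Sdc4 (-0.63 ± 0.08) and Flrt2 (0.60 ± 0.13).

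**Figure D4:**
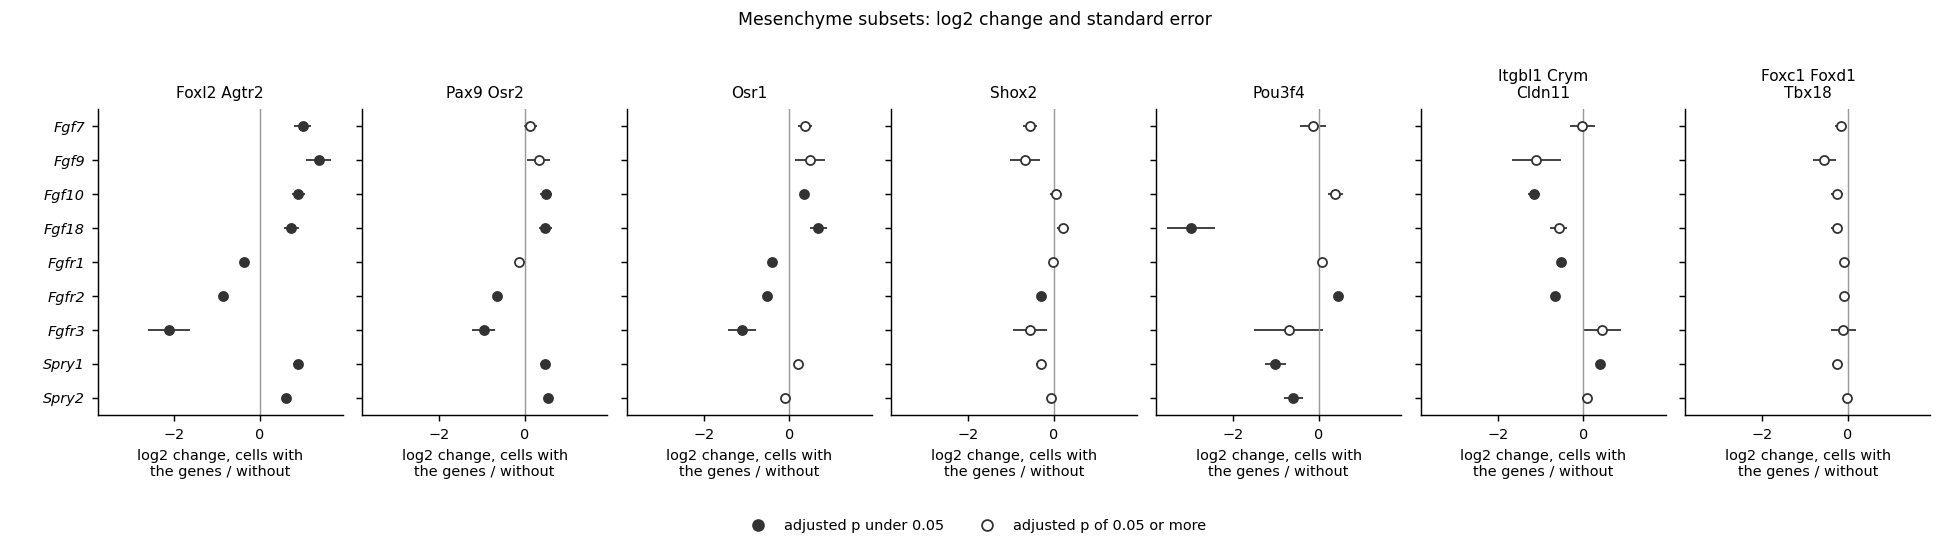
Log2 difference between mesenchymal cells with and without the named genes (x axis) for each member (y axis). The cells of the Foxc1 Foxd1 Tbx18 panel were also selected by Zic1. Filled points have an adjusted p under 0.05 and bars are standard errors. Fgf8, and Fgf9 in Pou3f4 cells, are left out; Fgf10 is higher in Foxl2 or Agtr2 cells (0.90) and lower in Itgbl1, Crym or Cldn11 cells (-1.15), and Fgfr2 is lower in both (-0.86 and -0.65).

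The mutants were compared with the controls in all cells together and in 8 classes. The targeted genes came first. Yap1 in mesenchyme had 65.4 and 67.2 CPM in the controls and 55.1 and 58.8 in the mutants (-0.26 ± 0.09, adjusted p = 0.55). Wwtr1 had 146 and 163 CPM against 145 and 157 (-0.07 ± 0.10). Reads from the 3′ end need not cover the deleted exons, whose place the labels do not give, so these levels do not check the labels. The labels give 2 noses per genotype but do not tie noses to libraries, so a p-value measures only the spread between these libraries.

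No member was called by edgeR in any of the 9 comparisons, and none of the pathway genes. Under alternatives, summed over the 9 comparisons, 17 pathway calls appeared without control 1, 10 without the filter on low counts, 3 with the replicate number as a block, 2 without mutant 1, 1 without control 2 and 1 with stricter cells. All genes together gave no call in all cells, mesenchyme, epithelium, osteoblasts, chondrocytes or glia (0% each), while 0.162% were called in endothelial cells (0.0405% higher, 0.122% lower), 0.0179% in keratinocytes (all higher) and 0.332% in mural cells (0.174% higher, 0.158% lower). At an unadjusted p under 0.05, edgeR had 3 of 10 members in all cells (4.88% of all genes), 3 of 9 in mesenchyme (8.01%) and 1 of 4 in mural cells (9.01%). It had 0 in epithelium (5.75%), osteoblasts (3.93%), chondrocytes (4.23%), endothelial cells (7.58%), glia (5.49%) and keratinocytes (5.52%). DESeq2 also called 0, with 2 members in all cells (2.48% of all genes) and 3 in mesenchyme (2.96%) at an unadjusted p under 0.05.

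Fgfr1 was higher in both mutant libraries than in both controls, with 143.0 and 143.2 CPM in the controls and 176.4 and 174.6 in the mutants over all cells (0.26 ± 0.08, adjusted p = 0.91). In mesenchyme its difference was 0.30 ± 0.10 (adjusted p = 0.54) and stayed between 0.24 and 0.36 with 1 library left out. Mural cells had 50.6 and 39.7 CPM against 91.0 and 91.6, a difference of 0.96 ± 0.31 (adjusted p = 0.25). In mural cells both mutant libraries lay above both controls for 1 of 4 members and for 20.5% of all genes. Fgf10 differed by 0.35 ± 0.11 in mesenchyme (adjusted p = 0.54), and by 0.22 to 0.47 with 1 library left out. None of these passed the test.

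Spry2 in mesenchyme differed by -0.52 ± 0.20 (adjusted p = 0.61). Control 2 carried much of it: the difference was -0.18 without control 2 (adjusted p = 0.84) and -0.80 without control 1, where it was called (adjusted p = 0.0024). It was also called without the filter on low counts (-0.51, adjusted p = 0.0019). Epithelial Fgfr2 showed the like dependence on 1 control library. It had 269.5 and 353.5 CPM in the controls and 251.0 and 259.7 in the mutants (-0.32 ± 0.16, adjusted p = 0.83), and was called without control 1 (-0.54, adjusted p = 0.0019), while the difference without control 2 was -0.089. Keratinocytes, which hold more Fgfr2 than respiratory epithelium, made up 95 of 118 epithelial cells in control 2. The other libraries had larger numbers of other epithelial cells: keratinocytes were 216 of 333 (control 1), 197 of 307 (mutant 1) and 188 of 311 (mutant 2). The part of this makeup in the difference was not tested. Within keratinocytes the Fgfr2 difference was -0.04 ± 0.13.

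In mesenchyme both mutant libraries lay above both controls for 3 of the 9 members tested and below for 2, where 26.1% of all genes lay above and 15.2% below. Over all cells it was 2 above and 1 below of 10, with 24.9% and 13% of all genes. In epithelium 2 of 7 lay below and 0 above (16.9% and 22.8% of all genes), and in osteoblasts 4 of 7 lay above and 1 below (21.9% and 12%). The difference between the mutant effects in epithelium and in mesenchyme was tested in 1 fit, which called 0 of 10 members and 0% of 16113 genes. The term for Fgfr2 was -0.38 ± 0.20.

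**Figure D5:**
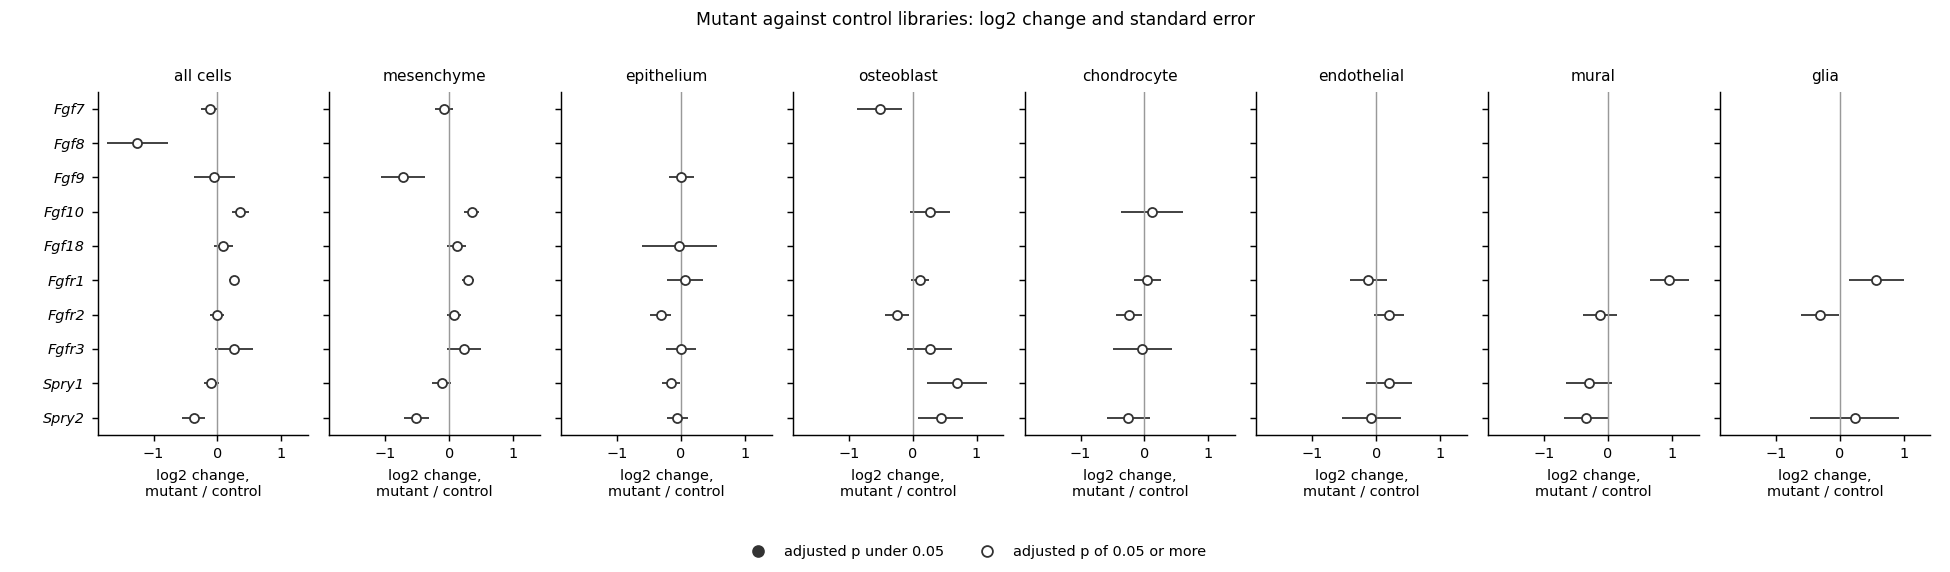
Log2 difference of the mutant from the control libraries (x axis) for each member tested (y axis) in each cell class; filled points would have an adjusted p under 0.05 and bars are standard errors. No point is filled; mesenchymal Fgfr1 is at 0.30, Fgf10 at 0.35 and Spry2 at -0.52.

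Profiles were last compared over 7 classes, on log2(CPM + 10), with the 9678 genes that reached 20 CPM in a class; these are correlations of class means from the same libraries and carry no p. Fgf9 was most like Pitx1 (Pearson r = 0.998), then Ntf5 and Mycl. Fgf10 was most like Shox2 (0.995) and Rspo2 (0.991), and Fgf7 like the collagen genes Col6a1 (0.997) and Col6a2. Fgf18 was most like Vstm2b (0.987). Among the members, Fgf10 resembled Fgf7 and Fgf18 (0.90 each) and Fgfr1 (0.86), and Spry1 resembled Spry2 (0.79). Fgf8 and Fgf9 had 0.95, with Fgf8 near the floor of detection in most classes.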

How the data were processed

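Single-cell RNA was counted in whole noses of embryonic day 14.5 from 4 libraries (2 control, 2 mutant). The authors deposited whole-number UMI counts per gene and cell. Per the file headers these came from Cell Ranger 8.0.1, while the submitters' processing notes name Cell Ranger 4, Seurat 4.3.0 and mm10. Per the labels' protocols, noses were dissociated with papain and collagenase, frozen and thawed, and captured with a 3′ kit; 2 sequencing providers are named without a map to libraries, so batch and group cannot be told apart.

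Barcodes with fewer than 500 genes or with over 10% of UMIs from mitochondria were dropped. A cell entered a class with at least 4 mesenchyme, 3 epithelium, 6 neuronal, 4 glia, 5 endothelial, 5 mural or 5 macrophage markers, with sub-classes at 4 osteoblast, 5 chondrocyte or 4 epithelial markers; 534 of the 11047 cells at or above the mesenchyme threshold lay exactly on it. Larger shares lay on the limit of other gates, such as 326 of 799 cells for osteoblasts, 141 of 505 for chondrocytes and 49 of 174 for mural cells. A further 714 cells were 1 marker below the osteoblast threshold and 126 below the mural one. The thresholds were set after marker counts were seen. For each class, the UMIs of a library's cells were added up, and the sums were tested in edgeR 4.0.16 (R 4.3.3; TMM, filterByExpr, quasi-likelihood, Benjamini-Hochberg over all genes tested, threshold 0.05), with library as a block between classes; contrasts of mural cells, glia and epithelial sub-classes were added after the cell numbers were known. DESeq2 1.42.0 was an alternative. Scrublet (scanpy 1.11.5) marked 1 cell per library on its automatic setting, so it did not work and no doublets were removed; an alternative removed the 149, 56, 87 and 163 highest scores. The tests were checked on simulated counts. Other alternatives were RLE size factors, no filter, stricter cells (1000 genes, 5%), stricter gates, each library left out and the replicate number as a block. Members and lists were chosen with earlier results of these data known. The rule for named genes was all 10 members in every comparison and, of 63 further FGF pathway genes, the 5 largest called changes per contrast; for the mutants and for the Shox2 and Foxc1 splits the plots show members that the text does not single out, and whole small groups of pathway genes were also named. Gene positions are GENCODE M21 on GRCm38.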

Additional observations from a re-analysis of the deposited data

How the results depend on the processing

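Of 232 recomputed counts and ratios, 209 stayed within their limits and 23 moved. Of the members' log2 differences under alternatives, 613 kept their side of the threshold, 77 were no longer called, 3 became called and 0 reversed. For the mutant against the control, 1 member was called in mesenchyme without the filter on low counts, and leaving out 1 library gave 0 to 1 in mesenchyme and 0 to 1 in epithelium. Leaving out 1 library gave 1 to 2 called members for keratinocytes against respiratory epithelium and 1 to 3 for olfactory against respiratory epithelium. It gave 0 to 2 for neuronal cells against olfactory epithelium. Among the mesenchyme splits it gave 1 to 2 for Shox2, 3 to 3 for Pax9 or Osr2 and 2 to 3 for Osr1. For cells with Foxc1, Foxd1, Tbx18 or Zic1 it gave 0 to 1. DESeq2 gave 2 for olfactory against respiratory epithelium, and dropping the filter gave 2 for neuronal cells. Without the library block the count was 0 for Shox2, 1 for Pax9 or Osr2 and 1 for Osr1. The epithelium to mesenchyme ratio of Fgf10 was 0.0137 in CPM and 0.0339 as the share of thinned cells with a UMI. The cause of these changes was not tested.

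Over all genes, the mutant against control counts ran over the 9 comparisons from 0 to 54 with DESeq2, 0 to 21 with RLE, 0 to 18 with doublets removed, 10 to 626 without the filter, 0 to 50 with stricter gates and, over 8 comparisons, 0 to 78 with stricter cells. They ran from 27 to 1158 without control 1, 0 to 59 without control 2, 0 to 63 without mutant 1 and 0 to 111 without mutant 2. Between classes, leaving out control 1 took the osteoblast count from 3370 to 2039 and the olfactory epithelium count from 1426 to 528, and the fit without the library block took the Pax9 or Osr2 count from 1474 to 403.

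With the replicate number as a block, 0 members were called in any mutant against control comparison and in the interaction, and 0 to 213 genes overall. The pairing is by number alone: deviations of same-numbered libraries had correlations from -0.0904 to 0.0965.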

Other observations

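The library control 1 held 70 of the 122 UMIs of Fgf8, against 17, 17 and 18 in control 2, mutant 1 and mutant 2. In control 1, 32 of them lay in 9 cells that passed no class gate and expressed at least 3 of 6 listed genes. The genes were Six3, Otx2, Sox1, Zic4, Rmst and Rfx4, a list chosen after the values were seen. Cells that passed the gate of any class were not counted, whichever of these genes they expressed. The same 9 cells held 100 of that library's 109 UMIs of Fgf17, a ligand close to Fgf8. Control 2 had 17 such cells with 7 UMIs of Fgf8 and 0 of Fgf17, mutant 1 had 6 such cells with 0 of Fgf8, and mutant 2 had 0 such cells. Outside these cells Fgf8 was at 1.08, 0.51, 0.59 and 0.67 CPM in control 1, control 2, mutant 1 and mutant 2.

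In 9004 mesenchymal cells thinned to 3000 UMIs, 102 cells held both Spry1 and Spry2, against 68.1 from the product of the libraries' shares. Fgf7 and Fgf10 were found together in 39 cells against 30.9, Fgf7 and Fgf18 in 19 against 12.01, and Fgf10 and Fgf18 in 32 against 32.8. The libraries did not all go the same way. For Fgf7 with Fgf10, control 1 alone lay below the product (7 against 10.3), and mutant 1 lay furthest above (15 against 7.30). For Fgf7 with Fgf18, control 2 alone lay below (1 against 1.35). For Fgf10 with Fgf18, control 1 (7 against 9.31) and control 2 (1 against 4.50) lay below. Mutant 1 (10 against 8.14) and mutant 2 (14 against 10.8) lay above. These counts are descriptions of cells within libraries.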
